A study of Sus scrofa with 11 samples.

Results

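Genes that mark T and natural killer (NK) lymphocytes were followed in pig carotid artery. The members were the rows of the count table whose gene name stood in a list of 39 symbols, and 36 symbols were found among 35670 rows. They fall into 19 pan-T genes, 5 genes of CD4 T cells (helper and regulatory), 1 CD8 gene (CD8A) and 11 cytotoxic and NK genes. CD8B and CD3G carry no name in the table; they were found by gene identifier and by position, and their values are given beside the members but stay out of the member counts. ZAP70 was not analysed here.

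The carotid arteries came from pigs (Sus scrofa) held on a Western diet rich in fat and calories for 12 weeks. In the SWNT-SHP1i group, single-walled carbon nanotubes carrying an inhibitor of the phosphatase SHP-1 were infused into a vein every week at 400 nM. The SWNT group had the same diet and the same weekly infusions of nanotubes without the inhibitor, also at 400 nM, so the diet, the nanotube, the infusion and the anaesthesia were common to both groups. There were 5 libraries of each group, 1 per animal: SWNT-SHP1i replicates 1, 2, 3, 5 and 6 and SWNT replicates 1 to 5. The counts of SWNT-SHP1i replicate 4, an animal labelled as dead before harvest, were not analysed here. The labels give no breed, sex or age, and no group without nanotubes is described.

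T cells recognise antigen through the T cell receptor, whose signal passes through the CD3 chains and CD247 to the kinase LCK and the adaptor LAT. CD4 is the co-receptor of helper and regulatory T cells and CD8 that of most cytotoxic T cells, while NK cells kill without a T cell receptor and share granzymes, perforin and several receptors with cytotoxic T cells. Both lymphocyte types are found in the wall of diet-fed arteries, as a small share of the tissue beside smooth muscle. SHP-1, the product of PTPN6, is itself known to damp T cell receptor and NK receptor signals in mouse and human lymphocytes. Pigs are known for a large share of gamma-delta T cells in blood and for CD8 on many T cells that also carry CD4, so CD4 and CD8A do not divide pig T cells as strictly as they do mouse or human T cells.

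The libraries held between 27593564 and 47718854 counts. SWNT-SHP1i replicate 3 stood apart before any comparison: it had a count for 14497 genes, against 17259 to 19942 in the other 9 libraries. Of the genes with a median of at least 20 counts in the other libraries, 9.27% were at 0 in this library, and between 0.0068% and 2.32% in each of the others. SWNT-SHP1i replicate 6 had 344 such genes and SWNT replicate 3 had 205. Contractile smooth muscle markers, which define the media of the artery, were abundant in all 10 libraries, with summed levels of 19977 to 51631 CPM (reads scaled to a common library size) in SWNT-SHP1i and 42242 to 62453 CPM in SWNT animals.

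The zeros touched the lymphocyte genes directly. In SWNT-SHP1i replicate 3, 15 of the 36 members had no read: 8 of 11 cytotoxic and NK genes, 5 of 19 pan-T genes and 2 of 5 genes of the CD4 list. For 11 of them it was the only library without a read. In the other 9 libraries between 0 and 5 members were at 0. Single genes of 1 receptor complex diverged there: CD3D had 0 reads, against 48 to 326 in the other libraries, while CD3E had 262 reads and CD3G 202. The adhesion receptor CD2, which is not part of that complex, had 396 reads in the same library. Of all genes with a median of 20 to under 50 counts in the other libraries, 54.8% were at 0 in SWNT-SHP1i replicate 3, and 4 of 6 members were. From 50 to under 100 counts the share was 31.6%, with 4 of 7 members, and from 100 to under 200 counts it was 12.8%, with 1 of 8 members. A zero in this library therefore does not show that the transcript was absent from the tissue. For members without a read there, the fold changes described below are also given without this library.

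**Figure D1:**
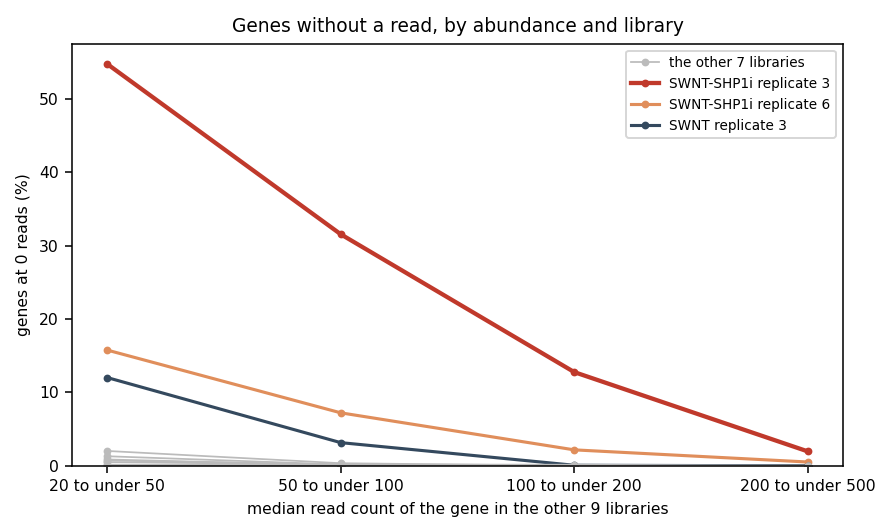
Share of genes without a read (vertical axis, %) by the median read count of the gene in the other 9 libraries (horizontal axis), 1 line per library. SWNT-SHP1i replicate 3 lies above every other library, with 54.8% of genes at 0 in the lowest band and 1.97% in the highest; SWNT-SHP1i replicate 6 (15.8% in the lowest band) and SWNT replicate 3 (12.0%) come next.

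Lymphocyte transcripts were rare in this tissue. The mean count of a member over the 10 libraries lay between 3.6 and 631.5, 6 members averaged under 20 counts, and 24 stayed under 10 CPM in every library. A count was present in every library for 18 members. Per kilobase of exon, the highest mean level over all libraries was that of NKG7, a granule membrane protein of NK and cytotoxic T cells, at 17.6 CPM per kb. Next came IL2RG, the common gamma chain of several cytokine receptors, at 10.4 CPM per kb, the adaptor LAT at 6.45, the adhesion receptor CD2 at 4.19 and the signalling chain CD247 at 3.13 CPM per kb. CD4 stood at 2.41, LCK at 2.15, CD3E at 1.92, GZMH at 1.90 and CD8A at 1.65 CPM per kb. The lowest were GZMB at 0.132, the adhesion receptor CD96 at 0.0897, the costimulatory receptor CD28 at 0.0682 and THEMIS, a signalling protein of developing T cells, at 0.0447 CPM per kb.

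From NKG7 down to CD247 the order was the same in both groups, but the gaps between these genes were not. NKG7 averaged 28.5 ± 42.5 CPM per kb in SWNT-SHP1i and 6.64 ± 1.81 in SWNT animals (SD, n = 5 each), and IL2RG averaged 14.4 ± 12.1 CPM per kb in SWNT-SHP1i and 6.49 ± 1.69 in SWNT animals. In the SWNT group these 2 genes and LAT, at 5.71 ± 1.44 CPM per kb, lay within 1 SD of each other. From CD4 down to CD8A, neighbours in the order differed by less than their SD in either group.

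**Figure D2:**
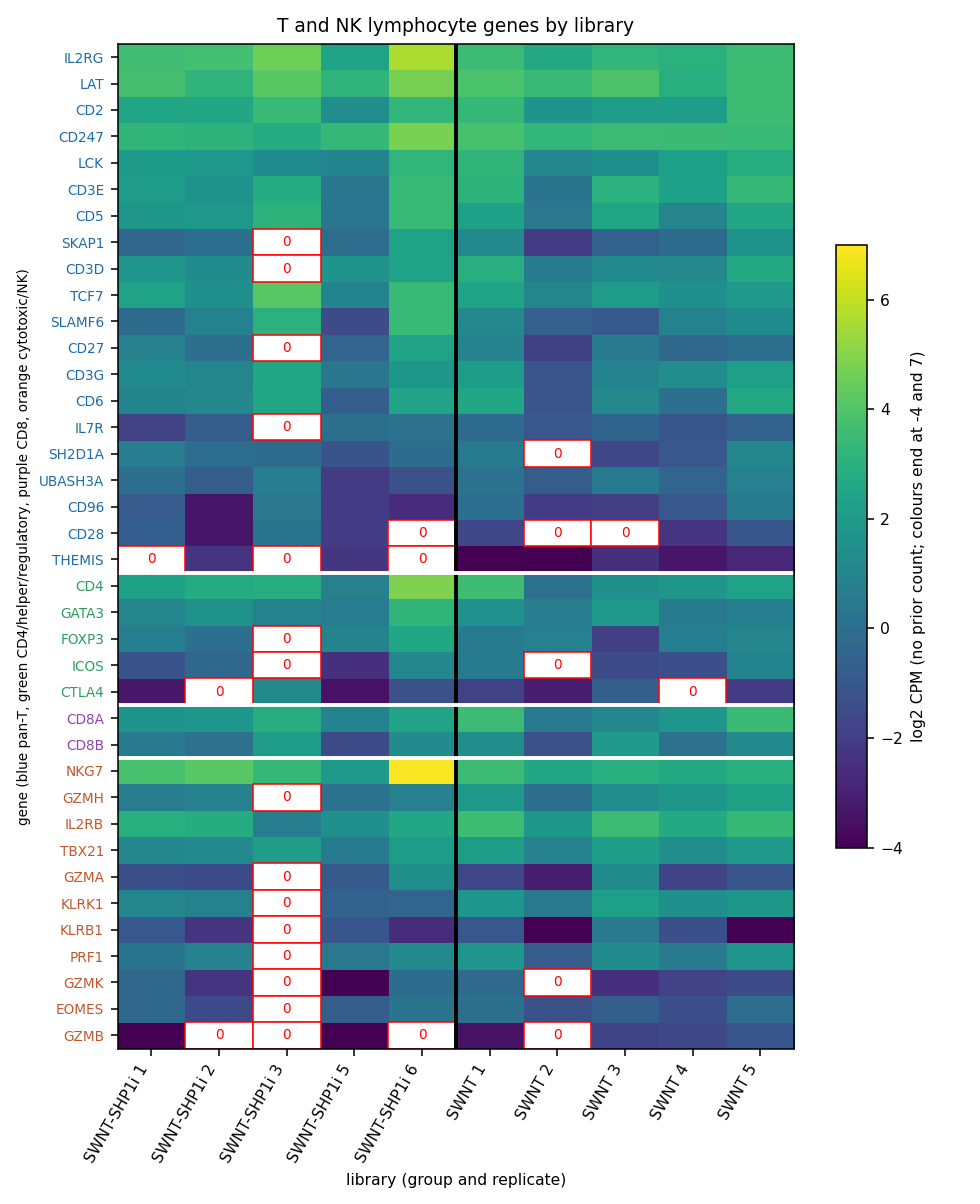
Level of 38 lymphocyte genes (rows, ordered by role: pan-T, CD4 list, CD8, cytotoxic and NK) in each of the 10 libraries (columns, SWNT-SHP1i left of the black line and SWNT right of it) as log2 CPM; white cells marked 0 have no read. SWNT-SHP1i replicate 3 holds 15 of the zero cells, and SWNT-SHP1i replicate 6 has the highest level for 18 of the 36 members.

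Over the whole table, 15930 genes passed the filter on low counts, and 32 of the 36 members were among them. THEMIS, CD28, CTLA4 and GZMB had too few reads to be tested. With edgeR's quasi-likelihood test and Benjamini-Hochberg adjustment over all genes tested, no member was called higher or lower in the SWNT-SHP1i group at an adjusted p under 0.05, against a background of 0% of all genes in either direction; the smallest adjusted p of a member was 0.997. At an unadjusted p under 0.05, 2 members were higher (NKG7 and IL2RG) and 0 were lower, beside 3.49% of all genes higher and 1.15% lower (4.64% in either direction). DESeq2 called 1 gene, which is no lymphocyte gene (0.00628% of the genes tested), and limma-voom called 0. Unadjusted, DESeq2 had 994 genes (6.24%) under 0.05, among them NKG7, IL2RG, KLRK1 and TCF7, and limma-voom had 1385 (8.69%) with no member among them.

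The members' fold changes were spread evenly about 0. Of the 32 tested members 16 had a positive log2 fold change (SWNT-SHP1i over SWNT) and 16 a negative one, with a median of -0.01 and a range of -1.57 to 2.10; of all genes tested 50.8% were positive, with a median of 0.01. By role the medians were 0.08 for the pan-T genes (10 positive, 7 negative), 0.56 for the CD4 list (3 positive, 1 negative) and -0.51 for the cytotoxic and NK genes (3 positive, 7 negative). These are descriptions of small lists; the difference between the roles was not tested. For no member did all SWNT-SHP1i libraries lie above all SWNT libraries or below them, against 0.0816% and 0.276% of all genes.

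The balance of signs turned mainly on SWNT-SHP1i replicate 6. Without SWNT-SHP1i replicate 3 there were 18 positive and 14 negative members with a median of 0.10 (51.2% of all genes positive). Without SWNT-SHP1i replicate 6 there were 9 positive and 24 negative members with a median of -0.37 (48.3% of all genes positive), and 9 of 10 cytotoxic and NK genes were negative, with a median of -0.80. Without both there were 7 positive and 27 negative members with a median of -0.51, beside 51.2% of all genes. In the animals whose numbers start with B9, which leaves out replicate 3 of both groups, 17 members were positive and 15 negative (51.5% of all genes positive), and without SWNT-SHP1i replicates 3 and 6 and SWNT replicate 3, 8 were positive and 25 negative (54.7% of all genes positive). Of the cytotoxic and NK genes, 4 were positive and 6 negative without SWNT-SHP1i replicate 3 (median -0.45). Without SWNT-SHP1i replicates 3 and 6, 2 were positive and 9 negative (median -0.61). Without SWNT replicate 3 as well, 3 were positive and 7 negative (median -0.37). In the B9 animals 5 were positive and 5 negative (median -0.17). No gene was called in any of these fits.

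**Figure D3:**
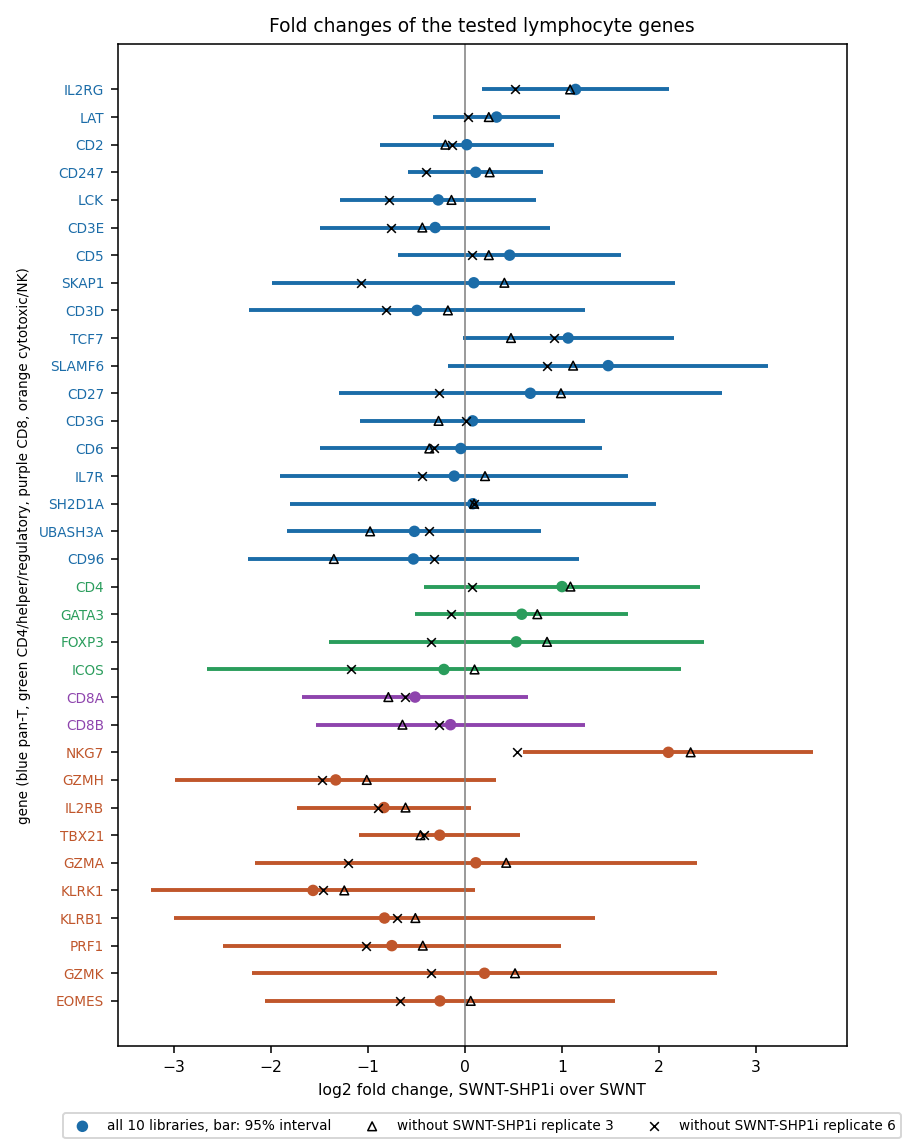
Log2 fold change of SWNT-SHP1i over SWNT (horizontal axis) for each tested lymphocyte gene (rows, coloured by role), with its 95% interval (bar), and the values with SWNT-SHP1i replicate 3 left out (triangle) or replicate 6 left out (cross). The intervals of NKG7 (2.10) and IL2RG (1.14) lie above 0 with all libraries, and their values without SWNT-SHP1i replicate 6 are 0.54 and 0.52.

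Among the pan-T genes, the CD3 chains carry the signal of the T cell receptor and are the narrowest T cell markers of the list. CD3E lies on chromosome 9 of Sscrofa11.1 (45619482 to 45633968, forward strand) beside CD3D (45637129 to 45644221, reverse strand). CD3E measured 4.12, 3.03, 7.12, 1.26 and 11 CPM in SWNT-SHP1i replicates 1, 2, 3, 5 and 6, against 8.58, 1.18, 8.13, 4.87 and 10.1 CPM in SWNT replicates 1 to 5. The groups overlapped over nearly their whole range, and both held an animal near 1 CPM and an animal above 10 CPM. The fitted log2 fold change of CD3E was -0.31 ± 0.61 (SE), with an edgeR p of 0.622 before adjustment.

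CD3D measured 3.38, 2.54, 0, 3.24 and 5.16 CPM in SWNT-SHP1i, against 7.40, 1.42, 2.41, 2.28 and 6.62 CPM in SWNT animals. Apart from the library at 0, the SWNT-SHP1i animals lay inside the range of the SWNT animals. Its log2 fold change was -0.49 ± 0.89 with all libraries, -0.17 when SWNT-SHP1i replicate 3 was left out and -0.81 when replicate 6 was. CD3G, the third CD3 chain, measured 1.26 to 5.49 CPM in SWNT-SHP1i and 0.472 to 4.61 CPM in SWNT animals, and CD247, the chain that both T cell and NK receptors use, 7.06 to 27.2 CPM in SWNT-SHP1i and 9.82 to 13.7 CPM in SWNT animals. The fold changes of CD3G (0.08) and CD247 (0.11) were smaller than their errors.

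IL2RG (chromosome X, 57143570 to 57147256, reverse strand) was the pan-T gene with the smallest p. It measured 12.5, 13.1, 24.1, 5.25 and 50.6 CPM in SWNT-SHP1i, against 11.8, 6.28, 9.33, 8.13 and 12.2 CPM in SWNT animals. In SWNT-SHP1i, 4 animals lay above every SWNT animal and the fifth below every one. This gave a log2 fold change of 1.14 ± 0.49 (edgeR p 0.0382 before adjustment, adjusted p 0.997), which was 0.52 (p 0.177) without SWNT-SHP1i replicate 6. IL2RG is also expressed by myeloid cells. All 12 macrophage markers had a positive fold change, 10 of them at an unadjusted edgeR p under 0.05. Of all genes tested, 50.8% were positive and 3.49% were higher at that p. The summed level of the macrophage markers was 408 to 2146 CPM in SWNT-SHP1i and 395 to 1191 CPM in SWNT animals, with none at 0 in all libraries. The part of macrophage RNA in the IL2RG level was not tested.

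TCF7 and SLAMF6 differed from the CD3 genes in the libraries that carried them. TCF7 (chromosome 2, 136422940 to 136457910, forward strand) encodes the transcription factor TCF-1 of naive and memory T cells, and it measured 5.08, 2.84, 17.9, 1.98 and 10.6 CPM in SWNT-SHP1i, against 5.34, 2.09, 4.11, 2.91 and 3.83 CPM in SWNT animals. SLAMF6 (chromosome 4, 89980786 to 90003645, forward strand), a receptor of T, NK and B cells, measured 0.915, 1.81, 8.15, 0.360 and 10.6 CPM in SWNT-SHP1i, against 2.27, 0.649, 0.536, 1.81 and 2.54 CPM in SWNT animals. In both genes SWNT-SHP1i replicates 3 and 6 lay above every SWNT animal and the other 3 SWNT-SHP1i animals did not. The log2 fold changes were 1.07 ± 0.56 for TCF7 and 1.48 ± 0.84 for SLAMF6 (edgeR p 0.0786 and 0.104 before adjustment). Without those 2 libraries TCF7 had a value of -0.14 and SLAMF6 one of -0.59.

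The other pan-T genes had no fold change outside their error. The proximal kinase LCK measured 1.95 to 9.48 CPM in SWNT-SHP1i and 2.12 to 9.26 CPM in SWNT animals, and LAT measured 8.78 to 26.5 CPM in SWNT-SHP1i and 7.58 to 15.2 CPM in SWNT animals. CD5 and CD6, scavenger-family receptors that tune the T cell receptor signal, had log2 fold changes of 0.46 ± 0.59 and -0.04 ± 0.74. IL7R, the receptor for a survival cytokine of T cells, stayed at 1.12 CPM or below in all 10 libraries. UBASH3A, a T cell protein that dampens the receptor signal, had a log2 fold change of -0.52 ± 0.67. In 3 of 5 SWNT-SHP1i animals it lay below every SWNT animal, in replicate 2 barely (0.587 against 0.590 CPM). The others were replicates 5 and 6, with 8 and 10 reads. Reads of CD27 and LAT share 118 and 64 bases of exon with a neighbouring gene on the same strand, so their values are less certain.

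**Figure D4:**
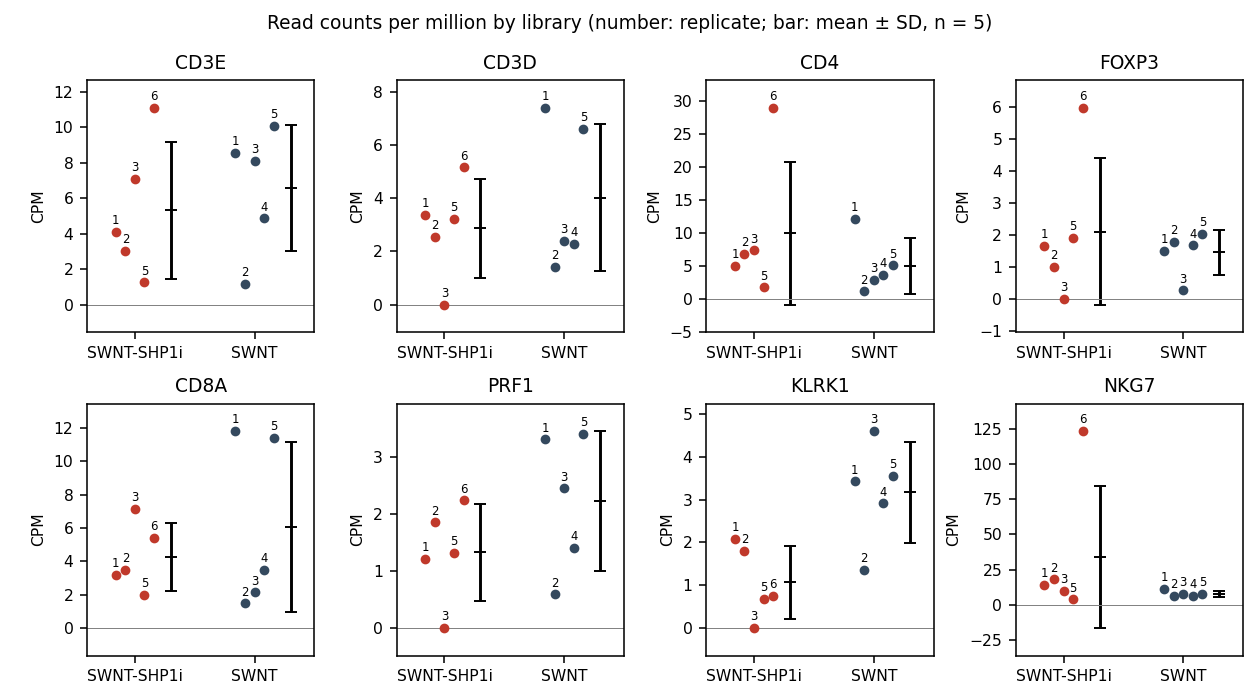
Level of 8 lymphocyte genes (vertical axes, CPM) in each library, SWNT-SHP1i left (red) and SWNT right (dark), with replicate numbers and the mean ± SD of 5 libraries as bars. CD3E, CD3D and CD8A overlap between the groups, SWNT-SHP1i replicate 6 alone holds the high values of CD4 (28.9 CPM), FOXP3 (5.99 CPM) and NKG7 (123 CPM), and SWNT-SHP1i replicate 3 is at 0 for CD3D, FOXP3, PRF1 and KLRK1.

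The CD4 list holds the co-receptor CD4, the regulatory T cell factor FOXP3, the helper factor GATA3 and the costimulatory and inhibitory receptors ICOS and CTLA4. CD4 (chromosome 5, 63892137 to 63918519, reverse strand) measured 4.93, 6.84, 7.33, 1.71 and 28.9 CPM in SWNT-SHP1i, against 12.1, 1.12, 2.90, 3.59 and 5.06 CPM in SWNT animals. SWNT-SHP1i replicate 6 alone lay above the SWNT range. That animal set the log2 fold change, which was 1.0 ± 0.73 (edgeR p 0.191 before adjustment) with all libraries, 0.07 when it was left out and -0.13 when replicate 3 was left out as well.

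FOXP3 (chromosome X, 43303785 to 43322968, reverse strand) defines regulatory T cells, which restrain other T cells. It measured 1.65, 1.0, 0, 1.92 and 5.99 CPM in SWNT-SHP1i, against 1.5, 1.80, 0.268, 1.68 and 2.04 CPM in SWNT animals. The extremes on both sides were SWNT-SHP1i animals, the highest being replicate 6 and the lowest replicate 3. Its log2 fold change of 0.53 ± 0.99 was 0.85 without replicate 3 and -0.35 without replicate 6, so it has no settled direction. Its exons share 80 bases with CCDC22 on the opposite strand, and with the strand setting unknown those reads cannot be told apart.

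GATA3 (chromosome 10, 63367663 to 63388859, reverse strand) measured 2.01, 3.03, 1.79, 1.59 and 9.11 CPM in SWNT-SHP1i, against 2.93, 1.65, 3.91, 1.46 and 1.68 CPM in SWNT animals. Its log2 fold change was 0.59 ± 0.56 with all libraries and -0.14 without SWNT-SHP1i replicate 6. ICOS measured 0 to 2.16 CPM in SWNT-SHP1i and 0 to 1.98 CPM in SWNT animals. CTLA4 was untested, with 2.28 CPM as its highest value, in SWNT-SHP1i replicate 3, and 0 to 0.625 CPM in SWNT animals. SWNT-SHP1i replicate 6 was the highest library for 4 of the 5 genes of the CD4 list.

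CD8A and CD8B, the chains of the CD8 co-receptor, lie side by side on chromosome 3 (57998891 to 58029760 and 57968383 to 57986441, both on the forward strand). CD8A measured 3.20, 3.50, 7.17, 1.98 and 5.41 CPM in SWNT-SHP1i, against 11.8, 1.47, 2.14, 3.49 and 11.4 CPM in SWNT animals. The 2 highest values were those of SWNT replicates 1 and 5, and the other 3 SWNT animals lay among or below the SWNT-SHP1i animals. CD8A had a log2 fold change of -0.51 ± 0.60 (edgeR p 0.406 before adjustment), and between -0.79 and -0.12 with any 1 library left out. CD8B measured 1.47, 1.08, 4.07, 0.360 and 2.50 CPM in SWNT-SHP1i, against 2.72, 0.413, 3.91, 1.10 and 2.33 CPM in SWNT animals, with a log2 fold change of -0.15 ± 0.71. The CD8B value turned to 0.20 without SWNT replicate 3 and to 0.12 without SWNT-SHP1i replicate 5.

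NKG7 had the highest level of the cytotoxic and NK genes. NKG7 (chromosome 6, 58496089 to 58497827, forward strand) measured 13.9, 18.0, 9.99, 3.78 and 123 CPM in SWNT-SHP1i, against 11.5, 6.13, 7.77, 6.45 and 7.48 CPM in SWNT animals. SWNT-SHP1i replicate 6 was far above every other library, replicates 1 and 2 lay slightly above the SWNT range and replicate 5 lay below it. NKG7 had a log2 fold change of 2.10 ± 0.76, the highest of the members (edgeR p 0.0173 before adjustment, adjusted p 0.997). Without SWNT-SHP1i replicate 6 it was 0.54 (p 0.181).

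PRF1, GZMH and GZMB did not share that peak, while GZMA, GZMK and EOMES were highest in the same library, at 2.79, 0.915 and 1.16 CPM. In SWNT-SHP1i replicate 6, PRF1, the pore-forming protein perforin, stood at 2.25 CPM and GZMH at 1.71 CPM, both inside the SWNT range, and GZMB had no read. The same library held 325 CPM of summed neutrophil markers, against 2.31 to 59.1 CPM in the other SWNT-SHP1i libraries and 3.89 to 12.2 CPM in SWNT libraries, and 2146 CPM of summed macrophage markers. All 6 tested neutrophil markers of 8 had a positive fold change, with a median of 2.95, beside 50.8% of all genes tested. No neutrophil marker was at 0 in all libraries. The part of myeloid RNA in the NKG7 level was not tested.

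PRF1 (chromosome 14, 73512769 to 73520202, reverse strand) measured 1.22, 1.86, 0, 1.32 and 2.25 CPM in SWNT-SHP1i, against 3.31, 0.590, 2.46, 1.41 and 3.41 CPM in SWNT animals. No SWNT-SHP1i animal reached the 3 higher SWNT animals, and all but replicate 3 lay above the lowest one. For PRF1 the log2 fold change was -0.75 ± 0.89 (edgeR p 0.413 before adjustment) and -0.43 without SWNT-SHP1i replicate 3.

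KLRK1 (chromosome 5, 61647043 to 61656192, forward strand) encodes NKG2D, the activating receptor for stress ligands on NK and CD8 T cells. It measured 2.08, 1.81, 0, 0.689 and 0.749 CPM in SWNT-SHP1i, against 3.43, 1.36, 4.60, 2.91 and 3.56 CPM in SWNT animals. In SWNT-SHP1i, 3 of 5 animals lay below every SWNT animal and the other 2 lay above the lowest SWNT animal alone. KLRK1 had a log2 fold change of -1.57 ± 0.85, the lowest of the members (edgeR p 0.0912 before adjustment, adjusted p 0.997), and it stayed between -1.96 and -1.24 with any 1 library left out. Without SWNT-SHP1i replicate 3, where it has no read, it was -1.24 (p 0.0268).

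IL2RB, the receptor chain through which NK cells receive interleukins, lay with KLRK1. IL2RB (chromosome 5, 10628962 to 10650314, forward strand) measured 7.42, 6.94, 1.63, 2.88 and 5.82 CPM in SWNT-SHP1i, against 12.0, 3.54, 11.5, 6.68 and 10.3 CPM in SWNT animals. No SWNT-SHP1i animal reached the 3 highest SWNT animals, and 2 lay below every one. The log2 fold change was -0.83 ± 0.46 (edgeR p 0.0920 before adjustment) and between -1.04 and -0.61 with any 1 library left out.

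Of the granzymes, serine proteases of the cytotoxic granule, GZMA and GZMB had few reads. GZMA (chromosome 16, 34282120 to 34290477, forward strand) measured 0.407, 0.342, 0, 0.540 and 2.79 CPM in SWNT-SHP1i, against 0.318, 0.118, 2.50, 0.301 and 0.479 CPM in SWNT animals. A single library per group, SWNT-SHP1i replicate 6 and SWNT replicate 3, held most of the GZMA reads. Its log2 fold change of 0.11 ± 1.16 was -1.20 with that SWNT-SHP1i library left out and 1.40 with that SWNT library left out. It was 0.43 without SWNT-SHP1i replicate 3, where GZMA has no read. GZMB (chromosome 7, 74705409 to 74708790, forward strand) was untested, at 0.0508, 0, 0, 0.0600 and 0 CPM in SWNT-SHP1i, against 0.0908, 0, 0.290, 0.326 and 0.479 CPM in SWNT animals. GZMH measured 0 to 1.86 CPM in SWNT-SHP1i and 1.0 to 4.82 CPM in SWNT animals, with a log2 fold change of -1.33 ± 0.84, and -1.01 (edgeR p 0.0463 before adjustment) without SWNT-SHP1i replicate 3. Granzymes are similar in sequence, and a second row named GZMA by its identifier held at most 30 counts, so reads split between such genes would alter these values.

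Of the remaining members, the T-box factors TBX21 and EOMES, which drive the cytotoxic programme, had log2 fold changes of -0.26 ± 0.42 and -0.26 ± 0.92. EOMES turned to 0.06 without SWNT-SHP1i replicate 3, where it has no read. TBX21 was the better measured of the pair, at 1.5 to 4.35 CPM in SWNT-SHP1i and 1.86 to 4.52 CPM in SWNT animals, and it had a read in every library. The log2 fold changes of KLRB1, a lectin-like receptor of NK and memory T cells, and of GZMK were -0.83 ± 1.11 and 0.20 ± 1.23, both from genes at 1.38 CPM or less in all libraries. Without SWNT-SHP1i replicate 3, where both have no read, KLRB1 had a value of -0.51 and GZMK one of 0.52.

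The summed levels set the roles side by side in each animal. The 19 pan-T genes summed to 69.9, 60.8, 115, 41.5 and 190 CPM in SWNT-SHP1i, against 103, 41.5, 71.4, 55.6 and 100 CPM in SWNT animals. The 10 cytotoxic and NK genes without NKG7 summed to 17.0, 15.9, 5.98, 9.23 and 19.7 CPM in SWNT-SHP1i, against 29.8, 8.94, 30.5, 19.0 and 28.2 CPM in SWNT animals. NKG7 was left out of that sum after its values were seen. With NKG7 the 11 genes summed to 30.8, 33.9, 15.97, 13.0 and 143 CPM in SWNT-SHP1i, against 41.3, 15.1, 38.3, 25.5 and 35.7 CPM in SWNT animals. In SWNT-SHP1i replicate 3, 8 of the 11 genes had no read (NKG7 had reads), so its low sums need not reflect the tissue. The highest pan-T sums were those of SWNT-SHP1i replicates 6 and 3. These sums keep IL2RG, which is also expressed by myeloid cells. IL2RG stood at 50.6 CPM in SWNT-SHP1i replicate 6, 24.1 CPM in SWNT-SHP1i replicate 3 and 11.8 CPM in SWNT replicate 1. Without IL2RG, SWNT replicate 1 would stand just above SWNT-SHP1i replicate 3, so the second place rests on that gene. The highest cytotoxic and NK sum was that of SWNT-SHP1i replicate 6 with NKG7, and those of SWNT replicates 3, 1 and 5 without it. In bulk tissue, fewer cells of a type and less RNA per cell cannot be told apart.

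**Figure D5:**
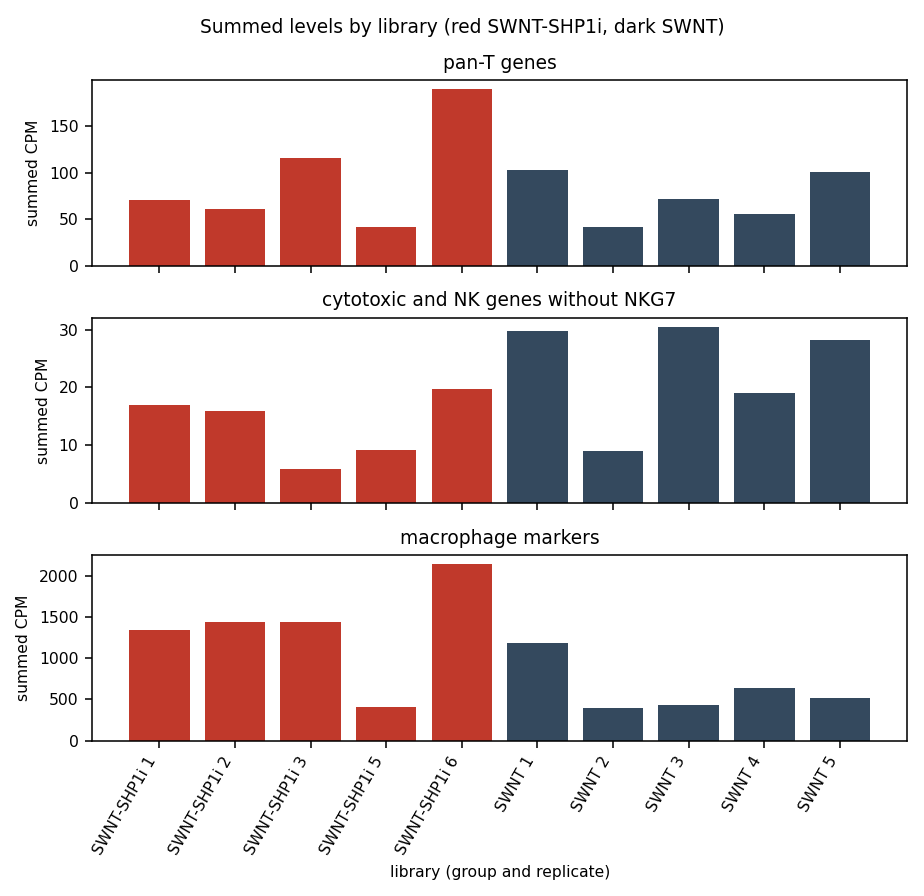
Summed CPM of the pan-T genes, of the cytotoxic and NK genes without NKG7 and of macrophage markers (panels from top to bottom, each axis from 0), 1 bar per library with SWNT-SHP1i left (red) and SWNT right (dark). The pan-T and macrophage sums peak in SWNT-SHP1i replicate 6 (190 and 2146 CPM). The cytotoxic sum is highest in SWNT replicate 3 (30.5 CPM). It is lowest in SWNT-SHP1i replicate 3 (5.98 CPM), where 8 of its genes have no read.

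Over the 36 members, the highest library was SWNT-SHP1i replicate 6 for 18 genes, SWNT replicate 5 for 8, SWNT replicate 1 for 4, SWNT-SHP1i replicate 3 for 3, SWNT replicate 3 for 2 and SWNT-SHP1i replicate 5 for 1. The lowest library, where it was a single one, was SWNT-SHP1i replicate 3 for 13 genes, SWNT-SHP1i replicate 5 for 9, SWNT replicate 2 for 5, SWNT replicate 4 for 2 and SWNT-SHP1i replicate 2 for 1. SWNT-SHP1i animals thus held both ends. The low end is mostly zeros: 11 members were at 0 in SWNT-SHP1i replicate 3 and in no other library. How often each library was highest or lowest over all genes was not counted. The spread between animals was also wide for these genes. The median SD of log2 CPM over the 32 tested members was 1.33 in SWNT-SHP1i and 0.99 in SWNT animals, against 0.67 and 0.34 over all genes tested. Among the 7247 tested genes within the members' range of mean level it was 1.03 in SWNT-SHP1i and 0.55 in SWNT animals. The SWNT-SHP1i values include the zeros of replicate 3, which enter at a level set by the prior count and widen the SD. The SD of CD247, IL7R and NKG7 was the smallest among SWNT animals, at 0.18, 0.35 and 0.36, so NKG7 was one of the steadiest lymphocyte genes in SWNT animals and had an SD of 1.83 in SWNT-SHP1i animals.

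A ratio of a pair of lymphocyte genes within a library sets them against each other and not against the rest of the tissue, and 3 such ratios were tested. It does so only as far as both transcripts come from lymphocytes, which was not tested. The log2 ratio of CD8A to CD4 was -0.61, -0.96, -0.03, 0.21 and -2.41 in SWNT-SHP1i, against -0.03, 0.38, -0.43, -0.04 and 1.16 in SWNT animals. It averaged -0.76 ± 1.03 in SWNT-SHP1i and 0.21 ± 0.61 in SWNT animals (SD, n = 5 each), and all 5 SWNT-SHP1i animals lay below the SWNT mean, replicate 5 barely. The difference of -0.97 had a p of 0.111 in a two-sided exact permutation test over 252 assignments and an adjusted p of 0.333 over the 3 ratios. It was -0.56 without SWNT-SHP1i replicate 6, the library with the highest CD4 level (28.9 CPM) and the highest macrophage marker sum (2146 CPM). The part of macrophage RNA in the CD4 level was not tested. The smallest p this design allows is 0.00794.

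The log2 ratio of FOXP3 to CD4 averaged -2.69 ± 2.69 in SWNT-SHP1i and -1.57 ± 1.57 in SWNT animals, a difference of -1.12 (exact permutation p 0.5, adjusted p 0.750), which was -0.01 when SWNT-SHP1i replicate 3 was left out. The log2 ratio of GZMA to CD3E averaged -3.26 ± 2.27 in SWNT-SHP1i and -3.42 ± 1.17 in SWNT animals, a difference of 0.16 (exact permutation p 0.913, adjusted p 0.913), and it was 1.11 with SWNT-SHP1i replicate 3 left out and -0.37 with replicate 5 left out. Neither ratio differed beyond the spread between animals.

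Further genes of the same cells were read from lists that hold no member. Of 29 other T cell signalling, surface and migration genes with a row, 27 were tested, 17 with a positive and 10 with a negative fold change and a median of 0.15; 0 were called. LAG3, an inhibitory receptor of activated T cells, had a log2 fold change of 2.16 ± 0.94 (edgeR p 0.0403 before adjustment, adjusted p 0.997). LAG3 measured 0.508, 0.807, 9.61, 0.300 and 7.24 CPM in SWNT-SHP1i, against 1.57, 0.413, 0.447, 0.552 and 1.14 CPM in SWNT animals; its high values were in SWNT-SHP1i replicates 3 and 6, as for TCF7 and SLAMF6.

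Of 11 tested NK and cytotoxic genes outside the members, 4 were positive and 7 negative, with a median of -0.40 and 0 called. GNLY, a granule protein that lyses microbes, measured 1.98, 3.64, 4.67, 2.91 and 7.49 CPM in SWNT-SHP1i, against 3.88, 3.18, 25.3, 6.30 and 2.75 CPM in SWNT animals, with a log2 fold change of -1.01 ± 0.63 and 1 SWNT library far above the rest. For ID2, a factor needed for NK cells that many other cell types express, it was -0.40 ± 0.29. Of the pig gamma-delta T cell genes 3 were tested, and SOX13 had the smallest p, with a log2 fold change of -0.42 ± 0.20.

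The inhibitor's target sits among the brakes on T cell receptor signalling. PTPN6, which encodes SHP-1, measured 30.7, 39.8, 28.7, 12.0 and 123 CPM in SWNT-SHP1i, against 28.5, 13.1, 13.6, 18.5 and 19.0 CPM in SWNT animals. In 4 of 5 SWNT-SHP1i animals it lay above every SWNT animal, replicate 3 barely (28.7 against 28.5 CPM). In replicate 5 it lay below every SWNT animal, the same division of animals as for IL2RG. Its log2 fold change was 1.34 ± 0.51 (edgeR p 0.0216 before adjustment, adjusted p 0.997). The transcript level says nothing of the phosphatase's activity, which the inhibitor targets. Among SWNT-SHP1i animals the summed macrophage markers were also highest in replicate 6 (2146 CPM) and lowest in replicate 5 (408 CPM). The part of macrophage RNA in the PTPN6 level was not tested. DGKZ, a kinase that removes the second messenger of the T cell receptor, had a log2 fold change of 0.58 ± 0.35. Of the 11 tested brakes 8 were positive, with a median of 0.25, beside 50.8% of all genes tested.

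Chemokines and survival cytokines of T cells were evenly divided, with 5 of 11 positive and a median of -0.08; CCL19, which draws T cells into lymphoid tissue, had a log2 fold change of 0.67 ± 0.48 and CXCL16 one of 0.40 ± 0.30. Of 8 B cell markers 5 were positive, with a median of 0.56 and 1 at an unadjusted edgeR p under 0.05, TNFRSF13C at 1.25 ± 0.49. At that p, 3.49% of all genes tested were higher. Markers of thymus and immature T cells summed to 1.26 to 10.1 CPM in SWNT-SHP1i and 0.447 to 5.11 CPM in SWNT animals, with FOXN1 and PSMB11, which define thymic epithelium, at 0 in all libraries; CD1E (1.63 ± 1.34) and DNTT (0.76 ± 1.04) had the smallest p. Markers of lymph node stroma and follicles summed to 82.4 to 583 CPM in SWNT-SHP1i and 46.7 to 247 CPM in SWNT animals, with the follicular marker FDCSP at 0 in all libraries, and 4 of 4 tested were positive, among them LYVE1 at 1.05 ± 0.63. The highest lymph node sum was that of SWNT-SHP1i replicate 6, which is also the highest in pan-T genes; the part of lymph node tissue in the lymphocyte levels was not tested.

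The tissue around the lymphocytes differed between the libraries as well. All 10 contractile smooth muscle markers had a negative log2 fold change, with a median of -0.62, 5 of them at an unadjusted edgeR p under 0.05 and 0 called. Of all genes tested, 50.8% were positive and 1.15% were lower at that p. The lowest smooth muscle sum, 19977 CPM, was that of SWNT-SHP1i replicate 6. CKM, the 1 skeletal muscle marker tested, had a log2 fold change of 2.61 ± 0.69, the 10 endothelial markers a median of 0.21 with 7 positive, and the 3 tested red cell markers were negative. The part of tissue composition in the lymphocyte levels was not tested.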

How the data were processed

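The deposited values are whole read counts per gene, 1 column per library, without normalization. Trim Galore, STAR, DESeq2 and the build Sscrofa11.1 are named, without versions, in the submitters' processing notes; the program that counted reads, the strands it used and its annotation were not given in the sources used here. Trizol extraction, poly-A enrichment and random hexamer priming are stated in the labels' protocols. Other values taken from the deposited table were gene names, coordinates and exon lengths. Between 75.0% and 84.1% of counts from 1 to 50 were even.

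Genes were filtered with filterByExpr (minimum count 10), scaled by TMM and tested with edgeR 4.0.16 (robust quasi-likelihood test, R 4.3.3), SWNT-SHP1i against SWNT, with no covariates, Benjamini-Hochberg adjustment over 15930 genes and a threshold of 0.05. The SE, approximate, was derived from the fold change and its F statistic, and intervals of 95% are 1.96 SE. CPM are counts scaled to the TMM-scaled library size; log2 CPM and ratios use a prior count of 2. Totals of 27593564 to 47718854 counts limit precision for genes this rare, and read duplicates are not described, so counts are not independent molecules. DESeq2 1.42.0, limma 3.58.1 (voom with quality weights), other scalings, filters and libraries left out were alternatives. The edgeR fit and the permutation test were tested on simulated data. Replicate numbers follow accession order and pair no animals. Animal numbers start with B9 except for SWNT-SHP1i 3 and SWNT 3, which is not said to mark a batch.

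Members and lists were chosen with earlier results of these data known. Values per library are given for CD3D, CD3E, CD4, FOXP3, CD8A, CD8B, GZMA, GZMB, PRF1 and NKG7 and for the 3 members of each role with the smallest p, and of each other list the 2 tested genes with the smallest p are named, apart from 3 genes that are not reported here; further members, and PTPN6, LAG3 and GNLY by library, were described after their values were seen.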

Additional observations from a re-analysis of the deposited data

Results flagged for a closer look

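Among 38 groups of 5 libraries, in which 1 sample far from the rest is found by chance in about 1 of 20 groups, 4 had such a sample. SWNT-SHP1i replicate 3 was the sample in 3 of them, each with no read of the gene. For CD3D its log2 CPM was -4.21, against 1.38 to 2.38 in the other SWNT-SHP1i libraries. For PRF1 its log2 CPM was -4.21, against 0.35 to 1.20. For KLRK1 its log2 CPM was -4.21, against -0.43 to 1.10. The value of -4.21 is set by the prior count of 2 and is no measured level. The fourth was FOXP3 in SWNT replicate 3, at a log2 CPM of -1.64, against 0.63 to 1.06 in the other SWNT libraries. SWNT-SHP1i replicate 6, which had the highest level for 18 members, was set apart in 0 groups by this measure.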

How the results depend on the processing

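Of 420 values under alternatives, 390 kept their direction and their side of the threshold and 26 turned their sign; the cause was not tested. Of 15 member fold changes, 8 kept their sign in all 21 alternatives. Without SWNT-SHP1i replicates 3 and 6 the log2 fold changes were -0.13 for CD4, -0.066 for GATA3, -0.79 for GZMA, -0.59 for SLAMF6 and -0.14 for TCF7, and the FOXP3 to CD4 ratio differed by 0.21. Without these and SWNT replicate 3, chosen after seeing the data, they were -0.27 for CD4, -0.74 for CD8B, -0.18 for FOXP3, -0.79 for SLAMF6 and -0.083 for TCF7, and the GZMA to CD3E difference was 1.43. With limma-voom they were -0.47 for FOXP3 and -0.25 for SLAMF6, and with a prior count of 0.5 the GZMA to CD3E ratio differed by -0.15. With 1 library left out, the log2 fold change ranged from 0.071 to 1.65 for CD4, 0.84 to 1.77 for SLAMF6, 0.48 to 1.31 for TCF7, -0.64 to 0.20 for CD8B, -0.35 to 0.85 for FOXP3, -0.14 to 0.85 for GATA3 and -1.20 to 1.40 for GZMA, and the GZMA to CD3E difference from -0.37 to 1.11. The named members with a positive fold change numbered 8 with all libraries, 5 to 9 with 1 library left out, 3 without SWNT-SHP1i replicates 3 and 6 and 4 without these and SWNT replicate 3. DESeq2 called 1 gene where edgeR called 0. Dividing counts by 2, also chosen after seeing the data, called 0 genes. No paired analysis was possible because the replicate numbers were given here in accession order and the labels pair no animals. Depth limits the 24 members under 10 CPM in every library, and the spread between 5 animals per group widens the intervals; a p that misses the threshold does not show equal levels.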
